A study of Mus musculus with 5 samples.

Results

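Hox genes encode homeodomain transcription factors and were described here in GFP-sorted lung cells of control and Igf1r-deleted mice at postnatal day 6 (P6). A gene was taken as a member if its symbol was Hoxa, Hoxb, Hoxc or Hoxd followed by a number, which 39 of the 23478 gene symbols in the deposited table met. The members lie in 4 clusters, with 11 genes in HoxA, 10 in HoxB, 9 in HoxC and 9 in HoxD.

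The data were 5 RNA-Seq libraries, 2 from control and 3 from Igf1r-deleted mice. All mice carried Gli1-CreERT2, a tamoxifen-activated Cre driven by the hedgehog-responsive gene Gli1, and a Rosa26-eGFP reporter that Cre switches on, so GFP marked cells in which the Cre had been active and their progeny. All pups were given tamoxifen, 100 µg at P0 and the same dose at P1, and lungs were taken at P6. Control mice had 1 floxed Igf1r allele and Igf1r-deleted mice had 2, so the controls could also lose a copy of the gene. Per the study's methods, the mice were of both sexes and of mixed background, and the number of pups behind a library is not given in the sources used here. The labels do not say whether replicates were separate animals, so p-values measure the spread between these samples, which may be technical. In bulk libraries, fewer cells of a type and less RNA per cell cannot be told apart.

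The order of Hox genes along a cluster follows the order of the body regions in which they act: genes at the 3′ end of a cluster are used in anterior regions, and genes at the 5′ end in posterior regions and in the genital and limb buds. Genes of the same paralog number in different clusters arose by duplication of a common ancestor and often share functions. HOX proteins bind DNA with partners of the TALE class, the PBX, MEIS and PKNOX proteins, and Polycomb and Trithorax proteins hold their clusters silent or active. In the lung, Hoxa5, Hoxb5 and Hoxc5 act mainly in the mesenchyme, and mice without Hoxa5 have defects of the trachea, branching and alveoli.

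The libraries held 35116766 to 37597857 counts, with a count in 17099 to 17239 genes, and levels are given as CPM, counts scaled to a common library size after edgeR's TMM correction of composition. At this depth a count of 0 allows up to 3 counts, or 0.0754 to 0.0864 CPM, a limit that covers counting error only. Replicate libraries of a genotype varied well beyond counting noise, with a chi-square over genes of 23.2 to 50.7 per degree of freedom. The genotype check, Igf1r, was at 324 and 324 CPM in the control group and at 140, 177 and 194 CPM after Igf1r deletion, without overlap, with a log2 fold change of -0.93 ± 0.14 (SE) and an edgeR adjusted p of 0.354. A list of 8 fibroblast markers summed to 19502 to 26187 CPM in the libraries, against 425 to 953 CPM for 8 epithelial, 222 to 631 CPM for 6 endothelial and 169 to 496 CPM for 6 hematopoietic markers. Most of the fibroblast sum came from abundant collagen genes, so these sums do not measure the share of each cell type. No marker of any of these lists was at 0 in every library.

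The Hox genes in use were the 3′ genes of HoxA and HoxB. Of the 39 members, 14 had at least 1 CPM in the mean of the 5 libraries and are called used here. All of them lay in HoxA and HoxB, among them the unbroken runs Hoxa2 to Hoxa7 and Hoxb2 to Hoxb8. No member of HoxC or HoxD reached that level. Of the other 25 members, 10 had 0 counts in every library and 15 had some counts.

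The clusters are given on mm10. HoxA lies on chromosome 6 on the minus strand. HoxB spans 174 kb of chromosome 11 (96194316 to 96368256, plus strand), HoxC 116 kb of chromosome 15 (102921103 to 103036852, plus strand) and HoxD 96.8 kb of chromosome 2 (74668310 to 74765142, plus strand). Summed over its members, HoxA gave 410 and 373 CPM in the control group and 377, 362 and 429 CPM after Igf1r deletion. HoxB gave 327 and 348 CPM in the control group and 355, 415 and 428 CPM after Igf1r deletion. HoxC gave 0.478 to 1.38 CPM and HoxD 0.445 to 1.53 CPM over the 5 libraries. HoxC and HoxD together held 0.152% to 0.393% of all Hox counts of a library.

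**Figure D1:**
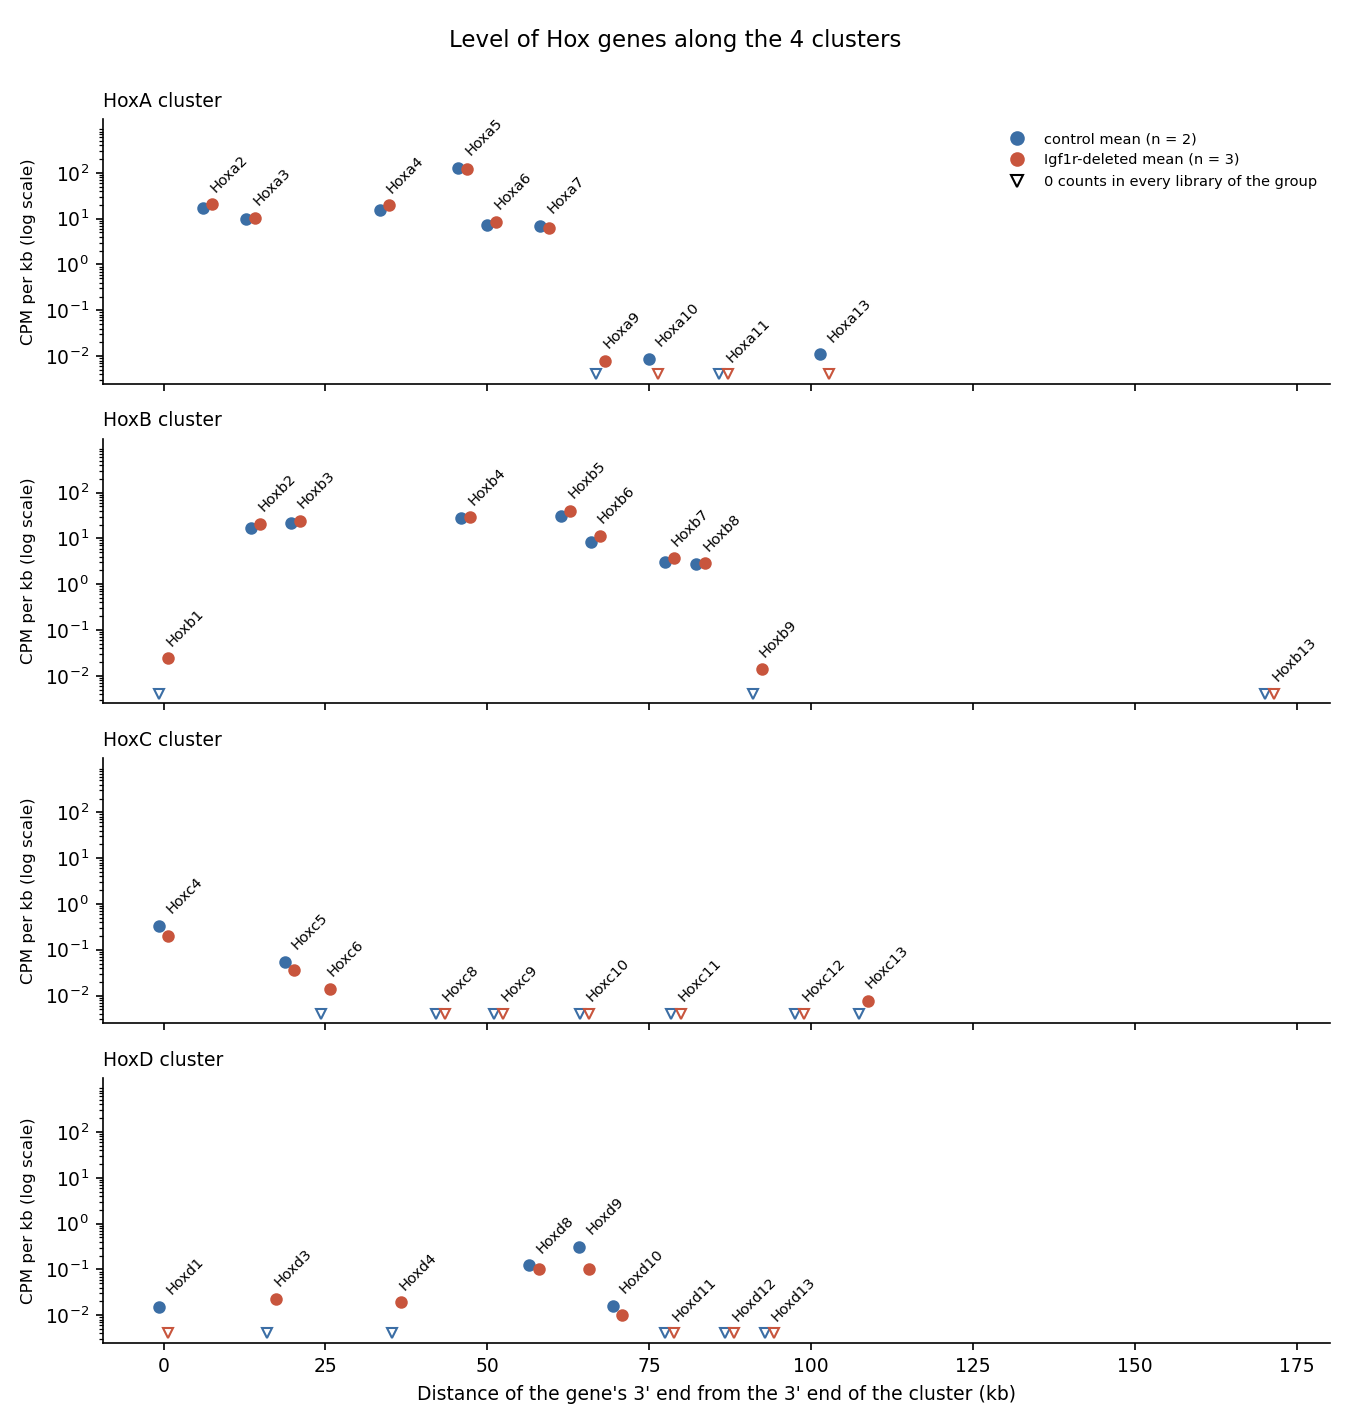
Mean level of the Hox genes shown (CPM per kb of exon, log axis) in control (blue, n = 2) and Igf1r-deleted (red, n = 3) libraries against the distance in kb of its 3′ end from the 3′ end of its cluster; open triangles mark groups with 0 counts in every library and are drawn at a fixed height. Hoxa5 was highest at 124 CPM per kb, levels dropped by over 2 decades of the axis between Hoxa7 and Hoxa9 and between Hoxb2 and Hoxb1, and all HoxC and HoxD genes lay below 1 CPM per kb.

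To compare genes with each other, levels were divided by the length of all exons of the gene (CPM per kb). Hoxa5, the member with the best-known part in lung mesenchyme, was the highest, at 124 CPM per kb in the mean of the 5 libraries (108 to 143), above 98.2% of the genes tested that had a length. Hoxb5 followed at 36.5 CPM per kb (at most 43.3 in any library), and the ranges of these 2 genes did not overlap. Hoxb4 was at 28.7, Hoxb3 at 23.3, Hoxa2 at 19.3, Hoxb2 at 19.3 and Hoxa4 at 17.9 CPM per kb, and each of these overlapped with the next in its range over the libraries. Hoxa3 (10.4), Hoxb6 (10.2), Hoxa6 (8.01) and Hoxa7 (6.51 CPM per kb) formed a lower group, set apart from Hoxa4 above and from Hoxb7 below. Hoxb7 (3.45) and Hoxb8 (2.83 CPM per kb) were lower still and overlapped with each other. Below them came Hoxc4 (0.250), Hoxd9 (0.184), Hoxd8 (0.112) and Hoxc5 (0.0431 CPM per kb).

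The level per length depends on the gene model. With the length of the longest transcript in place of all exons, Hoxa3 moved from 10.4 to 24.1, Hoxb3 from 23.3 to 31.1, Hoxa7 from 6.51 to 9.22 and Hoxb7 from 3.45 to 4.12 CPM per kb, while Hoxa5 and Hoxb5 stayed the highest and second highest. Read counting by strand is not given in the sources used here, and several of the 14 genes share exon sequence with another gene. The share was 52.9% for Hoxb3 and 27.3% for Hoxb2, both with the antisense gene Hoxb3os, 27.1% for Hoxa3, 20.4% for Hoxa7, 16.0% for Hoxa4, 15.0% for Hoxa2 and 3.59% for Hoxb5. Values of these genes can therefore hold reads of their partners, and Hoxa5, Hoxa6, Hoxb4, Hoxb6, Hoxb7 and Hoxb8 have no such overlap. Sequence shared with other Hox genes was small, with at most 3.32% of the 31-base words of any of the 14.

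By paralog number, the level was highest in group 5. In the controls, paralog group 5 made up 53.3% of the summed CPM per kb of all Hox genes, group 4 made up 14.5%, group 2 made up 11.3% and group 3 made up 10.4%. Groups 6 (5.15%), 7 (3.33%) and 8 (0.971%) were lower. The 16 genes of groups 9 to 13 gave almost nothing: 9 of them had 0 counts in every library, and all of them but Hoxd9 had no count above 3 in any library and 19 counts in all. The Igf1r-deleted libraries had the same order of groups down to group 7, with 49.7% in group 5, 15.2% in group 4, 12.9% in group 2, 10.9% in group 3, 6.22% in group 6 and 3.07% in group 7. The order below group 5 depends on the gene model: over the 5 libraries, group 3 summed to 33.7 CPM per kb with all exons and to 55.1 with the longest transcript, above group 4 (46.8 and 46.9) and group 2 (38.6 and 40.7) with the second length only.

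Within a paralog group the clusters differed. Hoxc5, the HoxC gene of the lung's leading group, had 6 and 6 counts in the controls and 5, 3 and 4 counts in the Igf1r-deleted libraries, against at least 7902 counts of Hoxa5 in each library. In group 4, Hoxc4 had 42 and 18 counts in the controls and 16, 12 and 27 in the Igf1r-deleted libraries, and Hoxd4 had 6 counts in 1 library and 0 in the other 4. In group 1, Hoxb1, a hindbrain gene of rhombomere 4, had 6 counts in Igf1r-deleted replicate 3 and 0 in the other 4 libraries, and Hoxd1 had 2 counts in 1 library. In group 8, Hoxb8 was used, Hoxc8 was at 0, and Hoxd8 had 11 and 13 counts in the controls and 8, 23 and 2 in the Igf1r-deleted libraries.

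The run of used genes ended sharply at 3 places. In HoxA, Hoxa7 had 764 and 662 counts in the controls and its neighbour Hoxa9 had 0 and 0, so Hoxa7 was at least 494-fold and 428-fold higher per kb in these 2 libraries than the 3 counts that a count of 0 allows. In the Igf1r-deleted libraries, Hoxa9 had 0, 2 and 3 counts. The folds for Hoxa7 use the length of all exons, 2876 bases for Hoxa7 and 5580 for Hoxa9. They would be lower with the longest transcripts, of 2031 and 3226 bases. The gene models of Hoxa7 and Hoxa9 lie 1245 bases apart. In HoxB, the 5′ edge fell between Hoxb8 (265 and 263 counts in the controls) and Hoxb9 (0 and 0 counts, at least 86.3-fold and 85.6-fold lower per kb), which lie 5309 bases apart. HoxB also had a 3′ edge, where Hoxb2 had 1857 and 2306 counts in the controls and Hoxb1, 11739 bases away, had 0 and 0, at least 412-fold and 512-fold lower per kb.

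Promoter windows from RefSeq are printed for Hoxa5, the highest member, for Hoxa7 and Hoxa9 on the 2 sides of the HoxA edge, and for Hoxb8, the last gene used in HoxB. Each holds the 250 bases before the RefSeq start of the gene on GRCm38.p6, 5′ to 3′ on the strand of the gene, and capitals mark CG dinucleotides. The positions are chr6:52204588-52204837 (minus) for Hoxa5, chr6:52218574-52218823 (minus) for Hoxa7, chr6:52227371-52227620 (minus) for Hoxa9 and chr11:96281655-96281904 (plus) for Hoxb8. The windows of Hoxa7 and Hoxa9 lie inside the longer gene models of the annotation used for lengths.
Hoxa5: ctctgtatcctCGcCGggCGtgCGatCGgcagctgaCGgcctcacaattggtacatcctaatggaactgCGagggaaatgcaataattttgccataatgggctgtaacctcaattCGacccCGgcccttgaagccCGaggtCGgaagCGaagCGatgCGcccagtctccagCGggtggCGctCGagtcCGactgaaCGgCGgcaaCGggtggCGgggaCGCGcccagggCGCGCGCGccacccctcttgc
Hoxa7: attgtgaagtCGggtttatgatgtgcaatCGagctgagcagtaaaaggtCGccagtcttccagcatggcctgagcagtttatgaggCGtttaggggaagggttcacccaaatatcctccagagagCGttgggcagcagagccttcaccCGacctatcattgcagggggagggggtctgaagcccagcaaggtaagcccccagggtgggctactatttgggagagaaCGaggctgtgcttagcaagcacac
Hoxa9: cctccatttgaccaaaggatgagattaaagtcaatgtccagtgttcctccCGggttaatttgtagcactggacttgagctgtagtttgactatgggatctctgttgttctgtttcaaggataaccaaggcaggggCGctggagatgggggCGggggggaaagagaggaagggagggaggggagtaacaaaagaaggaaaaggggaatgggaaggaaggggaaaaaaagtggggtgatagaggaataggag
Hoxb8: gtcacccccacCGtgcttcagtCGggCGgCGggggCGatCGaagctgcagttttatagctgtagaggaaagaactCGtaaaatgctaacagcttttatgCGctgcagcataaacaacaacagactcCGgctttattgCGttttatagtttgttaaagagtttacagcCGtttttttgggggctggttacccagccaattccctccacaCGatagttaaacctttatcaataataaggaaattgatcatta
These windows hold 28 CG dinucleotides for Hoxa5, 7 for Hoxa7, 3 for Hoxa9 and 12 for Hoxb8, against a median of 6 over all 32851 promoter windows of this length. The 22 members with a RefSeq window had 24 windows, with a median of 14 CG dinucleotides (6 to 28) in the 7 windows of genes at 1 CPM or more and of 12 (2 to 35) in the 17 windows of the others. The 2 sets overlapped over nearly their whole ranges. Among the genes with a window, its CG count thus did not separate used Hox genes from those under 1 CPM. On either strand, the Hoxb8 window holds 2 matches to the TATA letters TATAAA and 1 to TGATNNAT, letters bound by HOX and PBX proteins together, while the Hoxa5, Hoxa7 and Hoxa9 windows hold neither. Of all windows, 12.4% hold TATAAA and 7.68% hold TGATNNAT, and these matches are letters only, not sites shown to be bound.

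The genotypes were then compared gene by gene. The set of genes in use was the same in both genotypes: the fewest counts of any of the 14 in a library were 150, for Hoxb7. None of the 25 others reached 1 CPM in the mean of a genotype. Differences in level were small. No Hox gene passed the test at an adjusted p under 0.05 with edgeR, DESeq2 or limma voom, and edgeR called 0 (0%) of the 15298 genes tested, with a smallest adjusted p of 0.306.

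**Figure D2:**
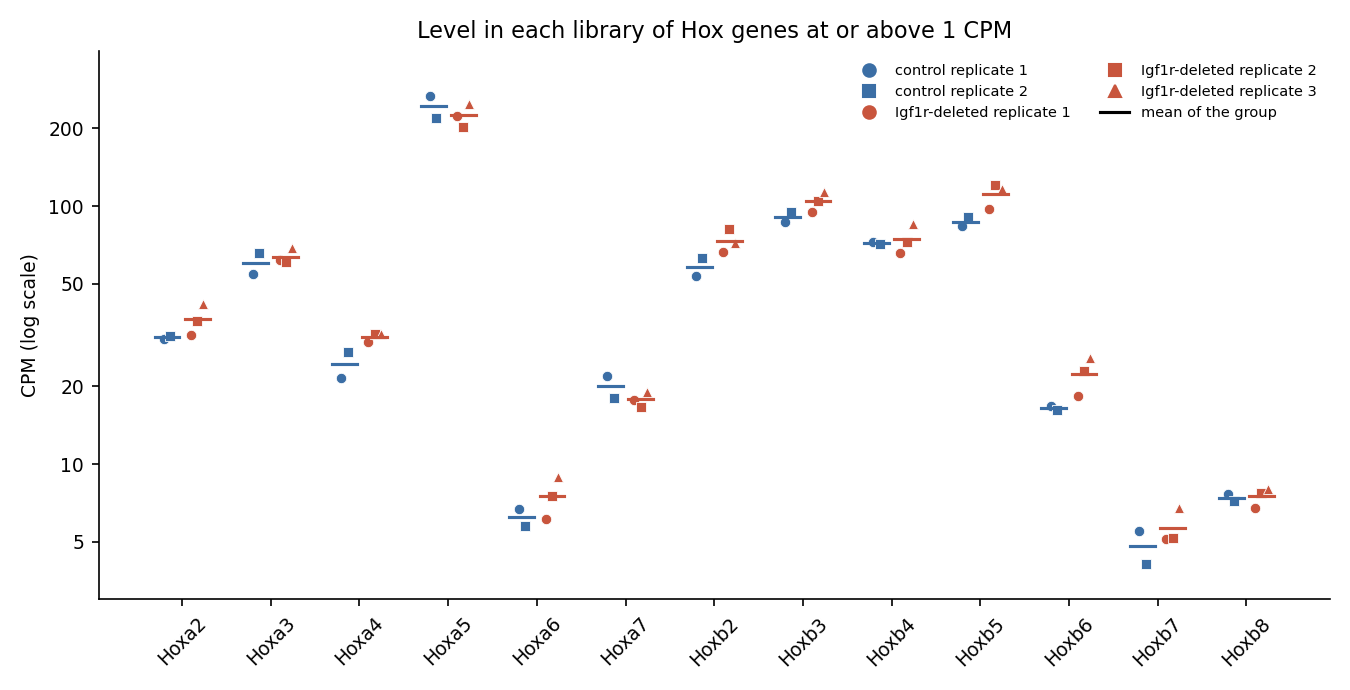
Level (CPM, log axis) of Hox genes at or above 1 CPM in each control (blue) and Igf1r-deleted (red) library, with lines at the group means. Hoxb5, Hoxb6, Hoxb2, Hoxb3, Hoxa2 and Hoxa4 had all 3 Igf1r-deleted libraries above both controls, while Hoxa5 and Hoxa7 overlapped.

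The filter on low counts kept 17 members, the 14 genes above with Hoxc4, Hoxd8 and Hoxd9, and left out 22. Of the 17, 12 had a higher and 5 a lower estimate after Igf1r deletion, and the median log2 fold change was 0.20, beside 0.015 and 52.3% higher over all genes tested. Leaving out control replicate 1 brought the median of the 17 to 0.13, and leaving out Igf1r-deleted replicate 3 brought it to 0.098. At an unadjusted p under 0.05, 4 members were higher (Hoxa4, Hoxb2, Hoxb5 and Hoxb6; 23.5% of the 17) and 0 lower, where the background over all genes tested was 5.65% higher and 6.75% lower. The count of 4 was not stable: it was 0 without control replicate 1, 0 without Igf1r-deleted replicate 2 and 0 without Igf1r-deleted replicate 3, although all 4 estimates stayed above 0. In 6 members (35.3% of the 17) both controls lay below all Igf1r-deleted libraries and in 0 above them, against 16% and 14.9% of all genes tested. Neighbouring Hox genes share regulation and are not independent, so these counts describe the libraries and are not a test of the family.

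Hoxb5 had the lowest p of the family and Hoxb6 the highest fold change. Hoxb5 was at 83.5 and 90.6 CPM in the control group and at 97.6, 121 and 116 CPM after Igf1r deletion. The groups did not overlap, with a log2 fold change of 0.36 ± 0.12 (SE) and an edgeR adjusted p of 0.354. Hoxb6, which neighbours Hoxb5 on its 5′ side, was at 16.8 and 16.2 CPM in the control group and at 18.4, 23.0 and 25.8 CPM after Igf1r deletion. Again the groups did not overlap, with Igf1r-deleted replicate 1 nearest to the controls, a log2 fold change of 0.44 ± 0.16 (SE) and an edgeR adjusted p of 0.367.

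Of the 3′ genes of HoxB, Hoxb2, a gene of hindbrain patterning, was at 53.5 and 62.9 CPM in the control group and at 66.3, 81.5 and 71.7 CPM after Igf1r deletion. All 3 were above both controls, with a log2 fold change of 0.33 ± 0.13 (SE) and an edgeR adjusted p of 0.384. Hoxb3 was at 86.9 and 95.1 CPM in the control group and at 95.2, 104 and 114 CPM after Igf1r deletion, with a log2 fold change of 0.20 ± 0.11 (SE) and an edgeR adjusted p of 0.481. The Hoxb3 groups were separated by a narrow gap, between control replicate 2 and Igf1r-deleted replicate 1. Hoxb4, also known for its part in blood stem cells, was at 72.8 and 71.5 CPM in the control group and at 65.6, 72.5 and 85.2 CPM after Igf1r deletion. The Hoxb4 libraries overlapped, with a log2 fold change of 0.05 ± 0.13 (SE).

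The 5′-most used genes of HoxB overlapped between genotypes. Hoxb7 was at 5.50 and 4.09 CPM in the control group and at 5.13, 5.16 and 6.73 CPM after Igf1r deletion, with a log2 fold change of 0.24 ± 0.24 (SE). Hoxb8 was at 7.63 and 7.18 CPM in the control group and at 6.77, 7.72 and 8.01 CPM after Igf1r deletion, with a log2 fold change of 0.02 ± 0.17 (SE). Thus all 7 used genes of HoxB had estimates above 0, 4 of them without overlap. Over all genes tested, 52.3% had estimates above 0 and 16% were higher without overlap. The 7 are neighbours read in the same libraries, so their signs are not separate observations. Hoxb8, at the edge of the run, had the lowest estimate of the 7, although those of Hoxb4 and Hoxb8 fell below 0 without Igf1r-deleted replicate 3.

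In HoxA, Hoxa5 was at 268 and 219 CPM in the control group and at 224, 202 and 249 CPM after Igf1r deletion. The libraries overlapped, the controls differed from each other by more than the means of the groups did, and the log2 fold change was -0.11 ± 0.13 (SE; 95% interval -0.42 to 0.20). Hoxa4, a gene of cervical vertebral identity, was at 21.7 and 27.3 CPM in the control group and at 29.9, 31.9 and 31.8 CPM after Igf1r deletion. The Hoxa4 groups did not overlap, with a log2 fold change of 0.35 ± 0.13 (SE) and an edgeR adjusted p of 0.364. Hoxa2, a gene of hindbrain and neural crest patterning, was at 30.6 and 31.5 CPM in the control group and at 31.7, 36.0 and 41.6 CPM after Igf1r deletion, with a log2 fold change of 0.23 ± 0.13 (SE) and an edgeR adjusted p of 0.488. Its groups were separated by a narrow gap, with Igf1r-deleted replicate 1 next to the controls.

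Hoxa3, Hoxa6 and Hoxa7 overlapped between genotypes. Hoxa3, which is needed for thymus and parathyroid, was at 54.7 and 65.8 CPM in the control group and at 61.6, 60.8 and 68.9 CPM after Igf1r deletion. Hoxa6 was at 6.71 and 5.76 CPM in the control group and at 6.12, 7.52 and 8.88 CPM after Igf1r deletion. In both of these genes Igf1r-deleted replicate 3 was the highest library. Hoxa7 was at 22.0 and 18.1 CPM in the control group and at 17.8, 16.6 and 19.1 CPM after Igf1r deletion. Its log2 fold change of -0.17 ± 0.14 (SE) was the lowest of the 14, followed by that of Hoxa5.

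Intervals of single genes give the range of change that the spread between these libraries allows, and that spread may be technical. Across the 14 genes the estimates ran from -0.17 to 0.44 with a median of 0.24, and their 95% intervals from -0.48 to 0.85, so that a change of 1 on the log2 scale lay outside all 14 intervals. None of the 17 members tested met an absolute log2 fold change of 0.5 together with an unadjusted p under 0.05. The 3 weakly detected genes were much less certain. Hoxd9 had 38 and 8 counts in the controls and 0, 15 and 10 in the Igf1r-deleted libraries, and the estimate of -1.55 ± 1.08 (SE) rested on control replicate 1, without which it was 0.014. Hoxc4 likewise moved from -0.76 ± 0.60 (SE) to 0.021 without that library.

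**Figure D3:**
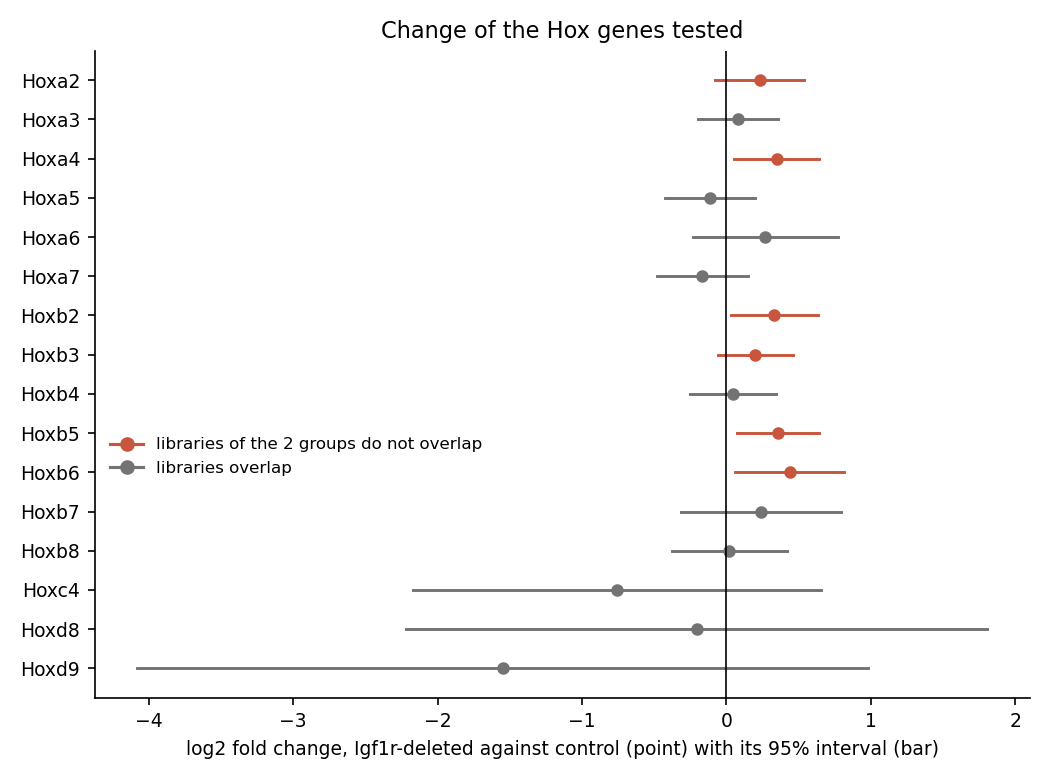
Log2 fold change (Igf1r-deleted against control, point) with its 95% interval (bar) of Hox genes tested with edgeR, in the order of the clusters; red marks the 6 genes whose libraries do not overlap between groups. The used genes shown lie between -0.17 and 0.44, while Hoxc4, Hoxd8 and Hoxd9 have wide intervals that include 0.

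The balance between clusters was compared within libraries, where it does not depend on library scaling. HoxB made up 44.1% and 48.1% of all Hox counts in the controls and 48.4%, 53.3% and 49.8% in the Igf1r-deleted libraries. HoxA made up 55.5% and 51.7% in the controls and 51.4%, 46.5% and 50% in the Igf1r-deleted libraries. The groups did not overlap in either share, but control replicate 2 and Igf1r-deleted replicate 1 differed by less than the 2 controls did. As HoxC and HoxD held at most 0.393% of Hox counts, the 2 shares mirror each other and are 1 observation. With 2 against 3 libraries an exact permutation test cannot give a p below 0.1, so none is given. The summed CPM of HoxB was 1.18 times the control mean in the Igf1r-deleted libraries, and that of HoxA 0.994 times, or 1.04 times when scaled to library totals in place of TMM.

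Ratios between paralogs were also compared within libraries. Hoxa5 was 4.77 and 3.58 times as high as Hoxb5 per kb in the controls and 3.40, 2.49 and 3.18 times in the Igf1r-deleted libraries. The ratio of Hoxa6 to Hoxb6 was 0.895 and 0.798 in the controls and 0.749, 0.734 and 0.773 in the Igf1r-deleted libraries. That of Hoxa7 to Hoxb7 was 2.15 and 2.37 in the controls and 1.86, 1.73 and 1.52 in the Igf1r-deleted libraries. These 3 of 6 ratios were lower in all Igf1r-deleted libraries than in both controls. Over single genes, 14.9% were lower and 16% higher without overlap, no such share was computed for ratios, and the 6 ratios come from the same libraries. For Hoxa2 with Hoxb2, Hoxa3 with Hoxb3 and Hoxa4 with Hoxb4 the ratios overlapped between groups. The Hoxa4 to Hoxb4 ratio was higher in the mean of the Igf1r-deleted libraries (0.680 ± 0.069, SD, n = 3) than in the controls (0.547 ± 0.096, SD, n = 2), opposite to the 3 above.

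**Figure D4:**
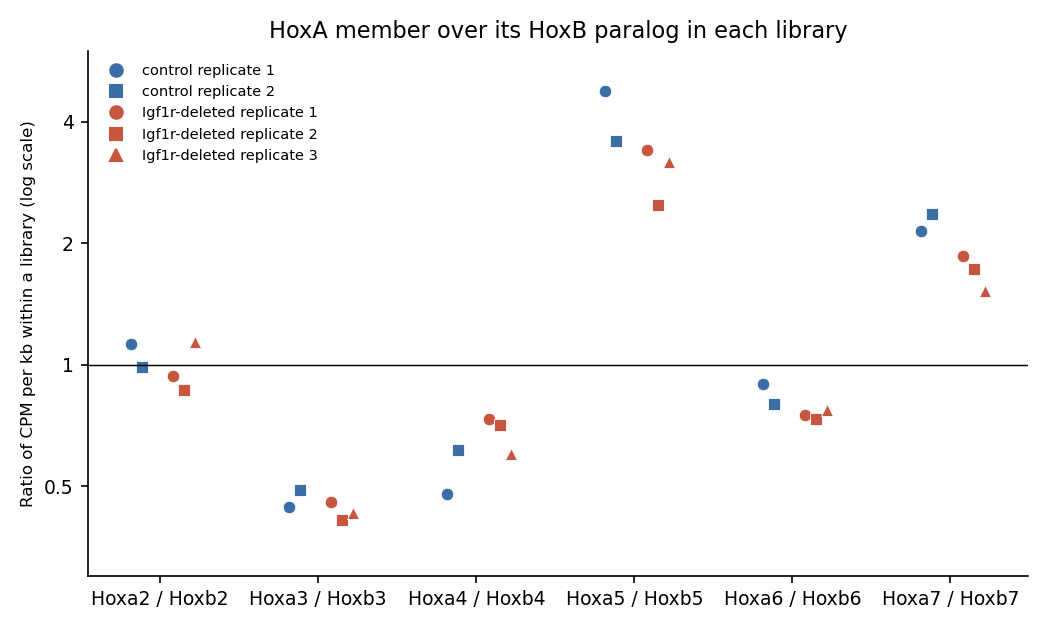
Ratio of a HoxA gene to its HoxB paralog (CPM per kb, log axis; the line marks equal levels) within each control (blue) and Igf1r-deleted (red) library for paralog groups 2 to 7. The ratios for groups 5, 6 and 7 were lower in all 3 Igf1r-deleted libraries than in both controls, from 4.77 and 3.58 to 2.49 to 3.40 in group 5, and those for groups 2, 3 and 4 overlapped.

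Markers of cell types moved between the same libraries. The 6 myofibroblast markers summed to 3018 and 3497 CPM in the control group and to 3425, 4287 and 3958 CPM after Igf1r deletion, overlapping. Of the 6, 4 had estimates above 0 and 2 below. Acta2 was at 407 and 655 CPM in the control group and at 764, 1067 and 907 CPM after Igf1r deletion. Tagln was at 295 and 445 CPM in the control group and at 449, 660 and 557 CPM after Igf1r deletion. Both were higher without overlap and had an unadjusted edgeR p under 0.05. Over all genes tested, 5.65% were higher at that p and 16% higher without overlap. The 4 lipofibroblast markers summed to 1736 to 2261 CPM in the controls and 1371 to 1578 CPM in the Igf1r-deleted libraries, without overlap, and 1 of the 4 was above 0. Most of that sum was Tcf21, which is also in the fibroblast list. Tcf21 was at 1662 and 1168 CPM in the control group and at 1003, 902 and 963 CPM after Igf1r deletion. Each of the other lipofibroblast markers overlapped between groups. The 8 epithelial markers summed to 864 to 896 CPM in the controls and 425 to 953 CPM in the Igf1r-deleted libraries, with 1 of 8 above 0. The 6 hematopoietic markers summed to 332 to 496 CPM and 169 to 395 CPM, with 0 of 6 above 0. Of these, Cd68 (10.8 and 8.49 CPM in the control group; 6.72, 4.45 and 5.18 CPM after Igf1r deletion) and Cd79a (10.2 and 11.2 CPM; 5.81, 1.86 and 2.53 CPM) were lower without overlap. Both had an unadjusted edgeR p under 0.05, beside 6.75% of all genes tested lower at that p and 14.9% lower without overlap. The 8 fibroblast markers summed to 24321 and 26187 CPM with 1 floxed allele and to 25671, 19502 and 22496 CPM with 2, and 1 of the 8 was above 0. The libraries with the highest HoxB sum, Igf1r-deleted replicates 2 and 3, had the highest myofibroblast sums and the lowest fibroblast, lipofibroblast and hematopoietic sums. For other lists these 2 libraries were the highest and the lowest of all, at 953 and 425 CPM for epithelial and 631 and 222 CPM for endothelial markers. The part of these cells in the Hox values was not tested.

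No listed partner or regulator of HOX proteins had an edgeR adjusted p under 0.05, as held for all 15298 genes tested. Over all genes tested, 52.3% had estimates above 0, and 5.65% were higher and 6.75% lower at an unadjusted p under 0.05. Some genes of these lists did not overlap between groups, where 16% of all genes tested were higher and 14.9% lower without overlap. All 9 TALE genes in the table were tested, with 5 estimates above and 4 below 0, 0 at an unadjusted p under 0.05, and a median log2 fold change of 0.046, which was -0.040 without Igf1r-deleted replicate 3. Without Igf1r-deleted replicate 1, 1 TALE gene was higher at that p. Pbx2, which encodes a partner of HOX proteins on DNA, was at 54.1 and 52.6 CPM in the control group and at 56.3, 51.3 and 58.1 CPM after Igf1r deletion, and its libraries overlapped. Of 26 Polycomb and Trithorax genes, which include the silencing complexes, their antagonists, demethylases and Ctcf, 17 were above and 9 below 0, with 0 at an unadjusted p under 0.05 and a median of 0.070. That median was 0.041 without control replicate 1, 0.043 without Igf1r-deleted replicate 2 and 0.039 without Igf1r-deleted replicate 3. At that p, 1 gene was lower without control replicate 2 or Igf1r-deleted replicate 3, and 1 was higher without Igf1r-deleted replicate 1 or 2. The highest per kb were Cbx6, a Polycomb reader (575 and 515 CPM in the control group; 573, 484 and 529 CPM after Igf1r deletion), and Kdm6b, which removes the Polycomb mark on histone H3 (283 and 255 CPM; 248, 260 and 267 CPM).

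Genes linked to Hox5 function in lung, among them Wnt, matrix and integrin genes, were split evenly, with 7 of 14 above and 7 below 0 and a median of -0.0046. The sign of this median turned with single libraries, from -0.055 without control replicate 1 to 0.062 without Igf1r-deleted replicate 3. Of these, Wnt2b, a mesenchymal Wnt ligand of the early lung, had an unadjusted p under 0.05: it was at 12.7 and 15.4 CPM in the control group and at 10.7, 10.9 and 10.7 CPM after Igf1r deletion. Its groups did not overlap, with a log2 fold change of -0.39 ± 0.14 (SE) and an edgeR adjusted p of 0.372. Over all genes tested 6.75% were lower at that unadjusted p, and without Igf1r-deleted replicate 3 no gene of the list was. The most abundant genes of the list per kb were Eln, which encodes elastin, and Fn1, which encodes fibronectin. Eln was at 17351 and 11104 CPM in the control group and at 12501, 9150 and 10370 CPM after Igf1r deletion, overlapping, and Fn1 was at 18488 and 16143 CPM in the control group and at 15556, 9625 and 10716 CPM after Igf1r deletion, without overlap. Their edgeR adjusted p-values were 0.492 and 0.409.

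Genes in the chromosome regions around the clusters were split between directions. The flanking genes named below lie farther from their cluster than the cluster is long. Of 20 flanking genes in the table, 17 were tested, with 9 above and 8 below 0 and a median of 0.0025, which became -0.039 when control replicate 2 was left out and -0.037 when Igf1r-deleted replicate 3 was. Calcoco1, in the region of HoxC (chromosome 15, 102706777 to 102722178), was at 197 and 166 CPM in the control group and at 136, 150 and 151 CPM after Igf1r deletion. It was lower without overlap, with a log2 fold change of -0.31 ± 0.11 (SE) and an edgeR adjusted p of 0.364, and its unadjusted p was no longer under 0.05 without control replicate 1 or with library totals. It was expressed in the wider region of a cluster that held at most 1.38 CPM in any library. The highest flanking genes per kb were Nfe2l1, in the region of HoxB (chromosome 11, 96817414 to 96829968), and Atp5g3, in that of HoxD (chromosome 2, 73908447 to 73911326). Nfe2l1 was at 326 and 369 CPM in the control group and at 387, 396 and 387 CPM after Igf1r deletion. Atp5g3 was at 97.3 and 95.7 CPM in the control group and at 102, 85.3 and 86.2 CPM after Igf1r deletion. Of the RNAs of the clusters themselves, 9 had a row in the table, 7 of them at 0 in every library, with 2 counts of Mir10a and 1 of Mir196a-1 in the others. Most of these rows are microRNA hairpins of 68 to 110 bases, shorter than a 150 bp read. Other RNAs of the list had no row, among them Hoxaas2, Hoxaas3, Hoxb3os and Hoxb5os, which share exon sequence with used genes. These rows therefore do not show whether the RNAs of the clusters were silent.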

How the data were processed

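RNA of GFP-sorted P6 lung cells was measured in 5 libraries, grouped by the sample labels. The authors used a NEBNext Ultra kit and 150 bp paired-end reads, Trim Galore for trimming, Bowtie2 for alignment to mm10 and GenomicAlignments for counting. The deposited values are raw counts per gene symbol. Versions, annotation and strand setting are not given in the sources used here.

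The main test was the two-sided quasi-likelihood F test of edgeR 4.0.16 (R 4.3.3, limma 3.58.1) on genotype alone, with TMM, filterByExpr (minimum count of 10) and Benjamini-Hochberg adjustment over all 15298 genes. CPM are counts over TMM-scaled library totals. All members may be named, those at 1 CPM or more with every library's value; of the lists, the 2 highest genes per kb and those with an unadjusted p under 0.05. Lengths, positions and overlaps came from GENCODE M21 on mm10, which held all 39 members, and promoter windows from RefSeq. The test was checked on simulated counts. The values of 2 genes are not reported here. The members and lists were chosen with earlier results of these data known. Alternatives were DESeq2 1.42.0, limma voom, robust empirical Bayes, other scalings and filters, transcript length, a replicate block and leaving out each library.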

Additional observations from a re-analysis of the deposited data

How the results depend on the processing

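Of 236 values of single Hox genes over the alternatives, 224 kept their direction and their side of the adjusted p threshold of 0.05, and 12 changed direction. As no Hox gene was under that threshold in the main fit, this says little beyond direction. It does not cover the unadjusted p, at which the count of Hox genes was not stable. With library totals in place of TMM, 1343 genes were higher at an unadjusted p under 0.05 and the Hox median log2 fold change was 0.27, with that of all genes at 0.088. Under that scaling the summed HoxA ratio went from 0.994 to 1.04, and that of HoxB from 1.18 to 1.25. DESeq2 called 199 genes at an adjusted p under 0.05. The libraries share only replicate numbers 1 and 2, which the labels do not tie to anything and whose deviations correlated at 0.21 and 0.12 over genes. Control replicate 2 and Igf1r-deleted replicate 3 also correlated at 0.12. The 2 controls deviate from their mean by opposite amounts, so these values cannot show that libraries of like number go together. With a replicate block 136 genes were called, the Hox median was 0.11, and Hoxb4 (-0.064), Hoxb8 (-0.033) and Hoxd8 (0.17) changed sign. No Hox gene was called in any of these.

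Leaving out 1 library (a lone control is then assumed to vary like the other group) gave 0 to 45 genes called, 252 to 1760 lower and 181 to 1423 higher at an unadjusted p under 0.05, 0 to 6 Hox genes higher at that p, and a Hox median of 0.098 to 0.26. Signs changed without control replicate 1 for Hoxa3 (range over left-out libraries -0.051 to 0.21), Hoxa5 (-0.26 to 0.035), Hoxc4 (-1.28 to 0.021) and Hoxd9 (-2.30 to 0.014). They changed without Igf1r-deleted replicate 3 for Hoxb4 (-0.066 to 0.12), Hoxd8 (-1.24 to 0.27) and Hoxb8 (-0.035 to 0.082), and for Hoxb8 also without control replicate 2 or Igf1r-deleted replicate 2. The cause was not tested. Depth limits the 25 genes under 1 CPM, where a count of 0 allows up to 3 counts.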

Other observations

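Other genes of position outside the Hox clusters were read in the same libraries. Of 13 further homeobox genes of axial or organ position, 7 had 0 counts in every library, among them Cdx1 and Cdx2, activators of posterior Hox genes, and Pdx1, a gene of foregut derivatives. The 2 genes of this list that were tested were the MEOX genes, homeobox factors of paraxial mesoderm and mesenchyme. Meox1 was at 6.11 and 9.55 CPM in the control group and at 14.1, 16.2 and 17.9 CPM after Igf1r deletion, a log2 fold change of 1.04 ± 0.22 (SE) with an edgeR adjusted p of 0.354. Meox2 was at 290 and 334 CPM in the control group and at 377, 424 and 454 CPM after Igf1r deletion, a log2 fold change of 0.42 ± 0.13 (SE) with an edgeR adjusted p of 0.354. Neither gene overlapped between groups, and both had an unadjusted p under 0.05. Over all genes tested, 5.65% were higher at that p and 16% higher without overlap. Without control replicate 1, 1 of them was left at an unadjusted p under 0.05.

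Of 8 tested genes of lung mesenchyme position outside the family, 4 were above and 4 below 0. Tbx3 was at 134 and 138 CPM in the control group and at 147, 207 and 182 CPM after Igf1r deletion, and Tbx5, a T-box gene that marks lung mesenchyme, at 160 and 171 CPM and at 178, 227 and 234 CPM. Their log2 fold changes were 0.39 ± 0.15 (SE) and 0.36 ± 0.14 (SE), with edgeR adjusted p-values of 0.376 and 0.377. Tbx2 (1460 and 1508 CPM in the control group; 1299, 1400 and 1438 CPM after Igf1r deletion) and Tbx4 (668 and 648 CPM; 585, 629 and 612 CPM), the highest of the list per kb, had both controls above all Igf1r-deleted libraries, with edgeR adjusted p-values of 0.720 and 0.663. Tbx3 and Tbx5 had both controls below all Igf1r-deleted libraries, and further genes of the list did not overlap, in either direction. Over all genes tested, 14.9% were lower and 16% higher without overlap. The count of 2 T-box genes higher at an unadjusted p under 0.05, beside 5.65% of all genes tested, fell to 1 when control replicate 2 was left out, and to 0 without control replicate 1, without Igf1r-deleted replicate 2 or without Igf1r-deleted replicate 3.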
